A study of Mus musculus with 4 samples.

Results

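The genes described here encode histone methyltransferases, demethylases, acetyltransferases and deacetylases outside Polycomb repressive complex 2 (PRC2) and the Kdm6 demethylases. They are 44 of the 15935 genes listed in any of the 4 libraries, found by the NCBI gene identifier of each symbol on a fixed list. The matching used no measured values, but the list was chosen with earlier results of these data known. By the mark they act on they comprise 7 genes of the H3K4 methyltransferase group, 3 that methylate H3K36 or H3K79, 5 H3K9 methyltransferases, 12 lysine demethylases, 9 deacetylases, 6 acetyltransferases and 2 arginine methyltransferases. All 44 were listed in every library, and 43 were at 1 FPKM or more (fragments per kilobase of transcript, scaled to library size, the authors' unit) in all 4. The exception was Hdac7, at 0.79 FPKM in 1 library.

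RNA came from bone marrow-derived macrophages, grown over 5 days from femur and tibia marrow with conditioned medium as the source of M-CSF, which drives macrophage growth. The donors were adult C57BL/6 mice, either wild type (WT) or carrying floxed Ezh2 alleles and a Cre driven by the lysozyme M promoter (KO), which is active in myeloid cells and need not recombine every cell. Cells of each genotype were left untreated (NT) or given lipopolysaccharide (LPS), the bacterial ligand of Toll-like receptor 4, for 2 h. The labels do not say whether animals were pooled, or whether treated and untreated cells came from 1 culture. With 1 library in each of 4 groups, no p-value was computed and no difference below has a replicate check.

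Histone-modifying enzymes add or remove methyl and acetyl groups on histone tails. Acetylation by p300, CBP and other acetyltransferases and methylation of H3K4 mark active enhancers and promoters, H3K36 and H3K79 methylation mark transcribed genes, and H3K9 methylation marks silent chromatin. PRC2, whose catalytic subunit Ezh2 was targeted here, places the repressive H3K27 methyl mark. In macrophages, deacetylases and H3K9 methyltransferases are known to restrain inflammatory genes, and acetyltransferases to act with the factors that LPS activates.

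The libraries held 5237782 to 5678451 estimated counts, of which the 44 genes took 0.226% to 0.367%, and a member rested on 19 to 1571 counts per library. Ezh2 was at 2.84 (NT) and 2.52 (LPS) FPKM in WT and at 2.06 and 1.29 in KO, from 43, 38, 31 and 18 counts. Its KO to WT ratio was 0.725 (95% interval 0.442 to 1.18) without LPS and 0.512 (0.275 to 0.919) with it. Which exons were deleted is not given, and whole-gene counts can hold reads from the exons that remain. All 14 macrophage markers were listed in each library, with sums of 6330.6 (NT) and 6440.3 (LPS) FPKM in WT and 7355.85 and 6894.11 in KO. The 12 neutrophil and precursor markers summed to 405.3 and 440 FPKM in WT against 682.19 and 609.77 in KO, and 8 fibroblast and stromal markers to 8.37 and 8.45 against 4.45 and 3.89. Sums were at most 4.96 FPKM for 5 dendritic cell markers, 3.71 for 4 B cell markers, 0.91 for 5 T and NK cell markers (2 listed) and 0.33 for 4 erythroid markers (2 listed). In bulk RNA, fewer cells of a type and less RNA per cell cannot be told apart.

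A fold is given as log2 of (FPKM + 1) over (FPKM + 1), which understates the change of low genes, and a gene counts as higher or lower when it is at least 2-fold apart on that scale. Ratios are of FPKM itself and carry an exact 95% Clopper-Pearson interval from the counts, which covers counting error only. Genes of at least 1 FPKM in 1 of the 2 libraries were compared, and the percentage of all such genes that met the same rule stands beside the counts over the 44 members. That background matters because most genes took a smaller share of the reads after LPS: the median gene was at a log2 fold of -0.46 in WT and -0.42 in KO. Rescaling the libraries by their median ratio brings both medians to -0.03, and values on that scale are called relative to the median gene.

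The stretches before the starts of 4 members are shown as sequence context. Setdb2, Sirt1 and Kdm4a are the members whose LPS to NT interval lay above 1 in both genotypes as deposited. Setdb1 is the relative of Setdb2 that had less RNA after LPS. No measurement here ties the letters to the LPS values. Sequences are from RefSeq (GRCm38.p6), minus strand for all 4 genes, 5′ to 3′, ending at the base before the annotated gene. The Setdb2 stretch, chr14:59440881-59440933, is the 53 bases between its start and that of the divergent gene Cab39l. The others are chr3:95357203-95357452 for Setdb1, chr4:118180091-118180293 for Kdm4a and chr10:63339036-63339285 for Sirt1. Capitals mark matches, on either strand, to any of 4 motifs: GAAA repeated after a gap of 2 bases (an interferon element), TGANTCA (AP-1), CCAAT (the CCAAT box) and CACGTG (an E-box).
Setdb2: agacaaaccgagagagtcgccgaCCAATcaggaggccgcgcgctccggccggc
Setdb1: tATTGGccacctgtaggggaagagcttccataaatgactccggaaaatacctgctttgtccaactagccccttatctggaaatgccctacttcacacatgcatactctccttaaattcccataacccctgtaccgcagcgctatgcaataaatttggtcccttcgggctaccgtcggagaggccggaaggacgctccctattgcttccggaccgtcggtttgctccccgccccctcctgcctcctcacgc
Kdm4a: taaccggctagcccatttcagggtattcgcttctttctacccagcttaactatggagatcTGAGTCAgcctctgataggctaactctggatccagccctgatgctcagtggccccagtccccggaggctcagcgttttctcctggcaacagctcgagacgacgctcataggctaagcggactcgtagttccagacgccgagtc
Sirt1: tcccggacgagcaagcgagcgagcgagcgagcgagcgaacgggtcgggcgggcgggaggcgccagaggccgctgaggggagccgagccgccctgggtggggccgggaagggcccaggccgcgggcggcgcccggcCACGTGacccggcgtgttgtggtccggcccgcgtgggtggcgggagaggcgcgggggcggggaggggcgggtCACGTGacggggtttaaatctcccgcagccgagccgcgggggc
Of all 32851 RefSeq windows of 250 bases before a start, 2.98% hold the interferon element, 6.75% TGANTCA, 33.9% CCAAT and 6.02% CACGTG. Among 46 windows of the 32 members in that table the shares were 2.17%, 10.9%, 32.6% and 13.0%. The Setdb2 stretch holds a CCAAT box, that of Sirt1 holds CACGTG at 2 places, and the interferon element as spelled was found for Kat5 alone. CG dinucleotides were dense, with a median of 21 per window for the members and 6 for all windows. The windows of expressed genes were not counted apart, so this density is not read as particular to these enzymes. A match is a description of letters, not a binding site.

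As the plot of levels by library shows, the members were moderately expressed, and 14 of them were below 10 FPKM in all 4 libraries. By mean FPKM the order ran from Prmt1, the main asymmetric arginine methyltransferase, and Dot1l, the H3K79 methyltransferase, down to Hdac7, Kdm5b and Hdac4. Prmt1 was at 36.04 (NT) and 35.47 (LPS) FPKM in WT and at 35.45 and 29.55 in KO, and Dot1l at 43.91 and 27.14 in WT and 39.53 and 25.36 in KO. Their means, 34.1 and 34.0 FPKM, cannot be ranked against the spread of the libraries. Hdac4, a class IIa deacetylase, was at 2.54 and 2.16 FPKM in WT and 1.98 and 1.89 in KO.

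**Figure D1:**
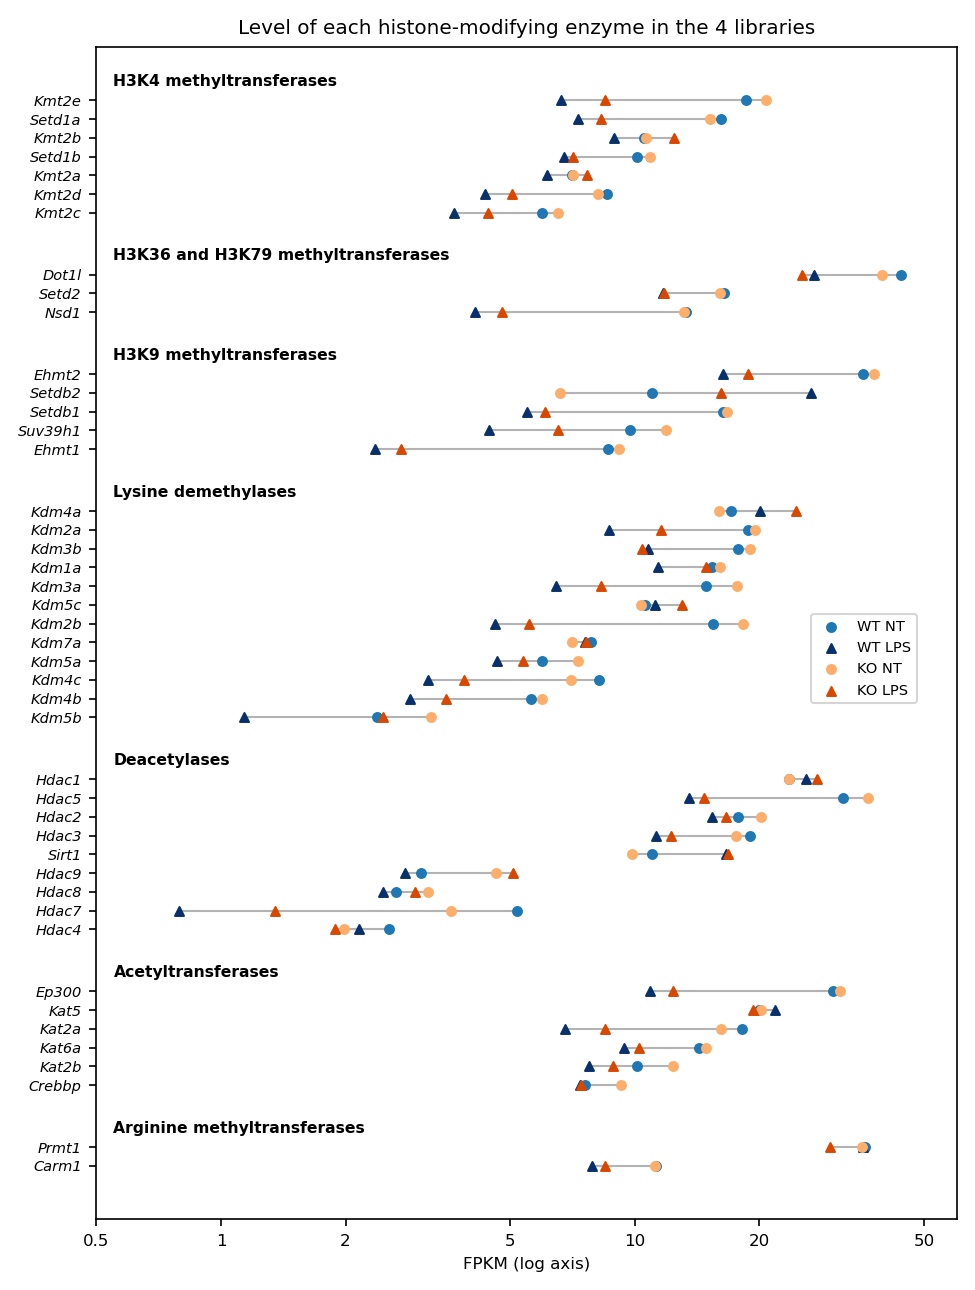
FPKM (log axis) of each of the 44 enzymes by class, with circles for untreated and triangles for LPS libraries, blue for WT and orange for KO; each point is 1 library. Most triangles lie left of the circles of the same gene, while those of Setdb2, Sirt1, Kdm4a, Kdm5c and Hdac1 lie to the right.

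After LPS, WT macrophages had less RNA of most of these enzymes. Of the 44, 14 were at least 2-fold lower (31.8%, against 17.2% of all measured genes): Kmt2e, Setd1a, Nsd1, Setdb1, Ehmt1, Ehmt2, Kdm2a, Kdm2b, Kdm3a, Kdm4c, Hdac5, Hdac7, Kat2a and Ep300. Among genes of at least 5 FPKM, 14 of 40 members met that rule against 15.9% of all. Only Setdb2 was at least 2-fold higher, 1 of 44 against 6.41% of all genes. An interval of the ratio below 1 was found for 31 members (70.5%, against 60.4% of all genes) and one above 1 for 3 (6.82%, against 13.3%), Setdb2, Sirt1 and Kdm4a. The members' median log2 fold was -0.57, against -0.46 for all genes.

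Relative to the median gene, fewer members were past 2-fold in WT. Then 4 members were at least 2-fold lower (Nsd1, Ehmt1, Kdm2b and Hdac7, against 7.56% of all genes) and 1 was higher (9.62%). The members' median was -0.16, against -0.03 for all genes. An interval below 1 was found for 21 members (47.7%, against 29.5% of all genes) and one above 1 for 11 (25.0%, against 29.5%). For all genes past 2-fold, the share that was higher was 27.2% as deposited and 56.0% after rescaling. All 14 members that were 2-fold lower as deposited kept an interval below 1 after rescaling. Rescaling multiplies every WT ratio by the same factor, so for ratios this low that outcome was largely fixed. No share over all genes was computed for it.

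The KO macrophages showed lower levels of much the same enzymes, with fewer past 2-fold. There 8 of the 44 were at least 2-fold lower (18.2%, near the 15.1% of all genes), or 8 of 40 among genes of at least 5 FPKM (14.1% of all), and Setdb2 was again the 1 that was higher (6.61%). An interval below 1 was found for 28 members (63.6%, against 57.1%) and one above 1 for 5 (11.4%, against 14.5%), Setdb2, Sirt1, Kdm4a, Kdm5c and Kmt2b. The median was -0.48, against -0.42 for all genes. Relative to the median gene, Ehmt1 and Kdm2b were 2-fold lower (2 members, 6.84% of all genes), Setdb2 and Sirt1 2-fold higher (2 members, 9.76%), and intervals lay below 1 for 18 (27.8%) and above 1 for 11 (29.0%). The share that was higher among all genes past 2-fold was 30.5% as deposited and 58.8% rescaled.

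All 8 enzymes that were 2-fold lower in KO were among the 14 of WT, 57.1% of that list and 100% of their own: Kmt2e, Nsd1, Setdb1, Ehmt1, Kdm2b, Kdm3a, Hdac5 and Ep300. The other 6 were Setd1a, Ehmt2, Kdm2a, Kdm4c, Hdac7 and Kat2a, whose log2 folds in KO ran from -0.98 to -0.71. No share of this overlap over all genes was computed, so the overlap is not read as particular to these enzymes. The folds of WT and KO share no library, and 39 of 44 members had the same sign in both, against 90.7% of 10721 genes. Across the 44 genes, which are not replicates, Pearson's r of the WT and KO folds was 0.95 and Spearman's rho 0.95, against 0.91 and 0.84 over all genes.

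**Figure D2:**
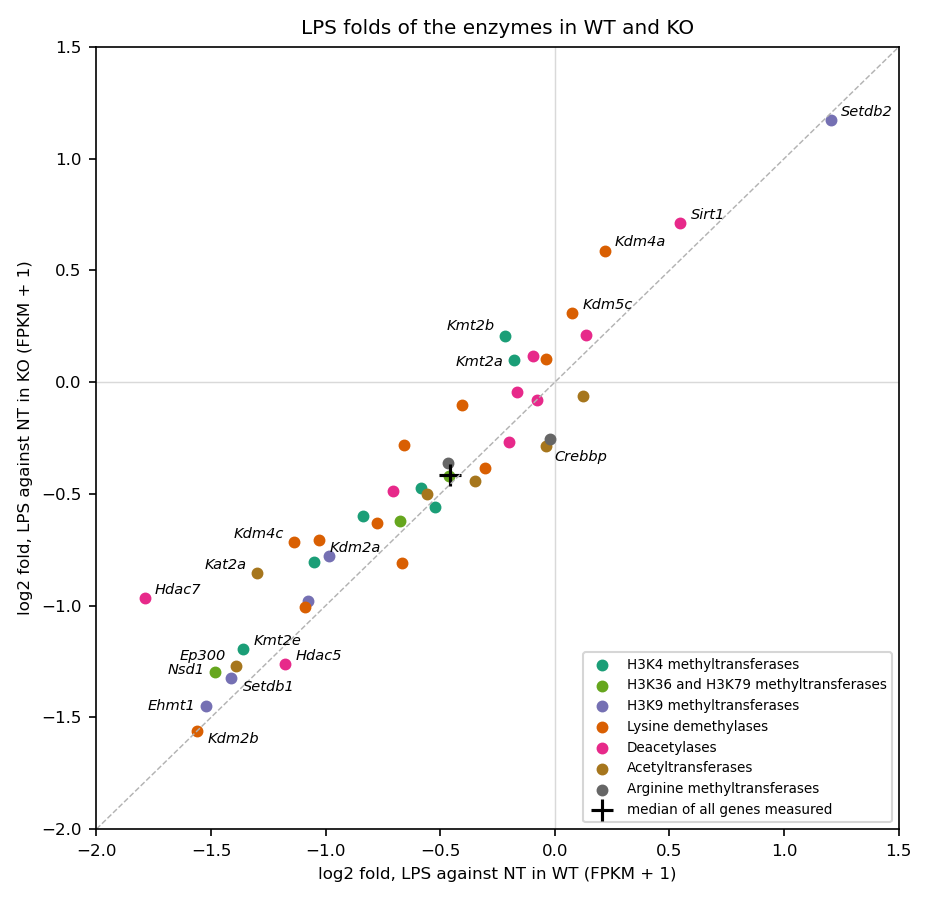
Log2 fold of LPS against NT in WT (horizontal axis) and in KO (vertical axis), 1 point per enzyme coloured by class; the dashed line marks equal folds and the cross the median of all genes. Setdb2 stands at the upper right at 1.20 and 1.17, and Hdac7 lies above the line at -1.79 and -0.97.

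**Figure D3:**
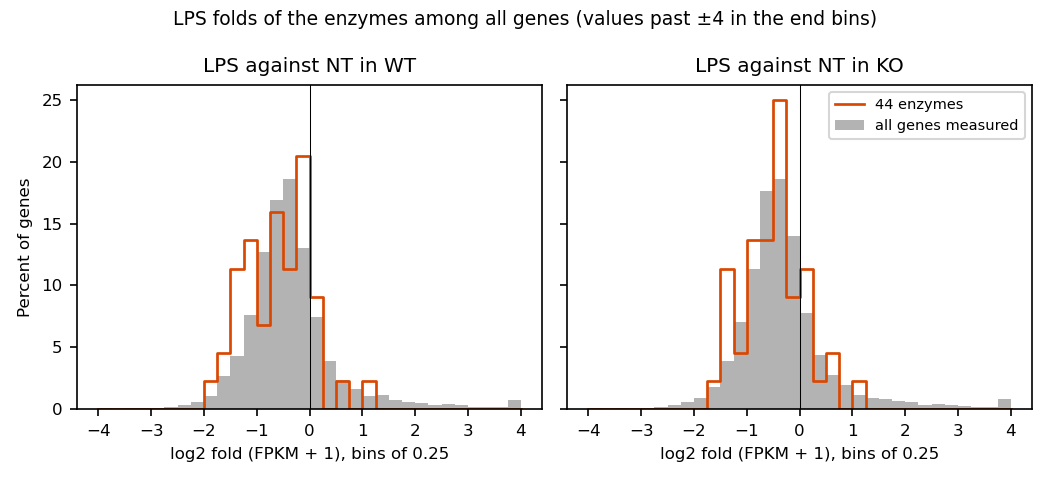
Percentage of genes (vertical axis) by log2 fold of LPS against NT (horizontal axis), grey bars for all measured genes and an orange line for the 44 enzymes, WT at left and KO at right. Most of both distributions lies below 0, around medians of -0.57 for the enzymes and -0.46 for all genes in WT, and Setdb2 alone among the enzymes lies above 1.

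Relative to the median gene, 9 members had an interval above 1 in both genotypes (24.7% of all genes did): Setdb2, Sirt1, Kdm4a, Kdm5c, Kdm7a, Kmt2a, Kmt2b, Hdac1 and Kat5. Another 18 had one below 1 in both (22.2% of all genes): Kmt2d, Kmt2e, Setd1a, Nsd1, Dot1l, Setdb1, Ehmt1, Ehmt2, Suv39h1, Kdm2a, Kdm2b, Kdm3a, Kdm3b, Kdm4c, Hdac5, Hdac7, Kat2a and Ep300. Every class with 3 or more genes except that of H3K36 and H3K79 thus had members on both sides.

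The classes hold few genes, and their counts of intervals below 1 stand against 60.4% of all genes in WT and 57.1% in KO, or 29.5% and 27.8% relative to the median gene. In the H3K4 group, 7 of 7 intervals lay below 1 in WT and 5 of 7 in KO, and relative to the median gene 4 and 3 did. Kmt2e, a SET-domain protein of this family that binds methylated H3K4, was at 18.54 (NT) and 6.62 (LPS) FPKM in WT and at 20.69 and 8.48 in KO. Both LPS libraries lay far below both untreated ones, with ratios of 0.357 (0.310 to 0.410) and 0.410 (0.360 to 0.466). Setd1a, catalytic subunit of a SET1 complex that trimethylates H3K4, was at 16.18 and 7.3 FPKM in WT and 15.2 and 8.26 in KO, while its paralog Setd1b was at 10.14 and 6.76, and 10.88 and 7.07. The enhancer monomethyltransferases were lower too as deposited, Kmt2c at 5.98 and 3.65 FPKM in WT and 6.51 and 4.41 in KO, and Kmt2d at 8.54 and 4.34, and 8.16 and 5.05. The log2 folds of Kmt2c, -0.59 in WT and -0.47 in KO, were near those of the median gene, -0.46 and -0.42. Relative to the median gene, the intervals of Setd1b in both genotypes and of Kmt2c in KO held 1. Kmt2c had the lowest mean level of the class and Kmt2e the highest.

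The MLL1 and MLL2 genes, whose products trimethylate H3K4 at selected promoters, had intervals below 1 in WT alone, as deposited. Kmt2a (MLL1) was at 7.06 and 6.12 FPKM in WT and 7.1 and 7.68 in KO, and only its WT interval excluded 1. Kmt2b (MLL2) was at 10.52 and 8.9 FPKM in WT and 10.66 and 12.45 in KO, lower after LPS in WT (ratio 0.846, 0.743 to 0.964) and higher in KO. Both had intervals above 1 in WT as well relative to the median gene, so their direction in WT depends on the scaling.

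Among the enzymes that mark transcribed genes, Nsd1, an H3K36 dimethyltransferase, was at 13.27 and 4.11 FPKM in WT and 13.16 and 4.77 in KO. The untreated libraries were level and both LPS libraries far below, at ratios of 0.310 (0.271 to 0.353) and 0.362 (0.319 to 0.411). Setd2, which trimethylates H3K36, was at 16.46 and 11.67 FPKM in WT and 16.07 and 11.77 in KO, log2 folds of -0.46 and -0.42 that equal those of the median gene. Dot1l (values above) had ratios of 0.618 and 0.641.

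The H3K9 methyltransferases divided, with 4 lower and 1 higher after LPS by interval in both genotypes, as deposited and relative to the median gene. Setdb2 (chromosome 14, 59402009 to 59440880), known in macrophages as an interferon-responsive repressor of inflammatory genes, was at 11.02 (NT) and 26.7 (LPS) FPKM in WT and at 6.61 and 16.15 in KO. Within each genotype the LPS library was the higher, by a ratio of 2.42 (2.04 to 2.88) in WT and 2.44 (1.95 to 3.07) in KO. Setdb1 (chromosome 3, 95323525 to 95357202), which silences retroelements with Trim28, was at 16.3 and 5.49 FPKM in WT and 16.72 and 6.07 in KO, ratios of 0.337 (0.277 to 0.407) and 0.363 (0.300 to 0.439). Ehmt1 and Ehmt2 (GLP and G9a) form 1 dimethyltransferase complex, and both were lower after LPS. Ehmt1, the lower of the pair, was at 8.62 and 2.35 FPKM in WT and 9.17 and 2.73 in KO, and Ehmt2, the highest of the class by mean but below Setdb2 in WT with LPS, at 35.49 and 16.32, and 37.89 and 18.74. Suv39h1, which trimethylates H3K9 in heterochromatin, was at 9.75 and 4.43 FPKM in WT and 11.9 and 6.53 in KO.

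The Setdb2 values depend on how reads were divided with an overlapping gene. RefSeq places Gm45935 (chromosome 14, 59380833 to 59440880) over the whole of Setdb2, and the deposited Setdb2 counts are fractional, 188.56 and 453.55 in WT and 112.94 and 254.12 in KO. Gm45935 was at 1.78 and 2.8 FPKM in WT and 4.39 and 1.81 in KO, so that its highest value fell in the library where Setdb2 was lowest. With the counts of both genes summed, a choice made after seeing the data, the LPS to NT ratio was 2.31 (1.97 to 2.71) in WT and 1.63 (1.36 to 1.95) in KO, and the log2 fold of 0.66 in KO was no longer 2-fold. Across the 53 bases shown above, Cab39l was at 10.68 and 7.91 FPKM in WT and 10.87 and 7.32 in KO. Its ratios as deposited were 0.741 (0.589 to 0.929) and 0.673 (0.530 to 0.853), opposite in direction to Setdb2. The median gene was also lower after LPS, at log2 folds of -0.46 in WT and -0.42 in KO. No value of Cab39l relative to the median gene is given, so its direction is not read further.

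Among the 12 lysine demethylases, 9 intervals lay below 1 in WT and 7 in KO, the latter near the share of all genes, and relative to the median gene 7 and 5 did. Kdm2b, an H3K36 demethylase that brings a PRC1 complex to CpG islands, was at 15.47 and 4.58 FPKM in WT and 18.28 and 5.54 in KO, and had the lowest fold of the class in both (log2 -1.56 and -1.56). Its paralog Kdm2a was at 18.71 and 8.66, and 19.51 and 11.58. The H3K9 demethylases Kdm3a and Kdm3b were at 14.82 and 6.44, and 17.7 and 10.78 FPKM in WT, and at 17.66 and 8.29, and 18.98 and 10.41 in KO. Each LPS value lay below both untreated values of its gene.

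The Kdm4 family, which removes H3K9 and H3K36 trimethylation, went both ways. Kdm4a, the highest of the 12 by mean over the 4 libraries but below Kdm2a and Kdm3b in both untreated ones, was at 17.09 and 20.03 FPKM in WT and 15.99 and 24.56 in KO, ratios of 1.17 (1.03 to 1.33) and 1.54 (1.35 to 1.75). Kdm4b was at 5.61 and 2.86 FPKM in WT and 5.96 and 3.49 in KO, and Kdm4c at 8.18 and 3.17, and 6.99 and 3.86, both lower after LPS in both genotypes. Of the H3K4 demethylases, Kdm5c was at 10.58 and 11.19 FPKM in WT and 10.33 and 13.03 in KO, with an interval above 1 in KO alone (1.26, 1.14 to 1.40). Kdm5a was at 5.96 and 4.64, and 7.3 and 5.36, and Kdm5b, the lowest of the class, at 2.38 and 1.14, and 3.21 and 2.46 FPKM. Kdm1a (LSD1) was at 15.39 and 11.37 FPKM in WT and 16.05 and 14.87 in KO. Kdm7a, at 7.04 to 7.83 FPKM, had intervals that held 1 in both.

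Of the 9 deacetylases, Hdac3, Hdac5 and Hdac7 had intervals below 1 in both genotypes and Sirt1 had intervals above 1. Sirt1, the nuclear NAD-dependent deacetylase that acts on histones and the p65 subunit of NF-kB, was at 11.02 and 16.57 FPKM in WT and 9.84 and 16.77 in KO. The LPS libraries were level with each other and above both untreated ones, at ratios of 1.503 (1.27 to 1.77) and 1.70 (1.43 to 2.03). Among class I enzymes, Hdac1 was at 23.55 and 25.97 FPKM in WT and 23.59 and 27.47 in KO, and Hdac2 at 17.78 and 15.34, and 20.19 and 16.61, all with intervals that held 1. Hdac3, the catalytic subunit of NCoR complexes, was at 19.01 and 11.26 FPKM in WT and 17.54 and 12.21 in KO, and Hdac8 at 2.46 to 3.16 FPKM.

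The class IIa deacetylases, which shuttle between nucleus and cytoplasm as corepressors, differed among themselves. Hdac5 was at 31.77 and 13.49 FPKM in WT and 36.59 and 14.7 in KO, ratios of 0.425 (0.369 to 0.487) and 0.402 (0.351 to 0.459). Hdac7 was at 5.19 and 0.79 FPKM in WT and 3.59 and 1.35 in KO, from 121, 19, 85 and 27 counts. Its log2 fold in WT, -1.79, was the lowest of the 44 members, at a ratio of 0.152 (0.0886 to 0.248), against 0.376 (0.234 to 0.586) in KO. The intervals of Hdac4 and Hdac9 held 1 in both genotypes. The deposited length of Hdac7 varied by 11.8% between libraries, more than for any other member, and its span overlaps Slc48a1, which was at 104.37 and 49.2 FPKM in WT and 72.9 and 39.68 in KO.

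Of the 6 acetyltransferases, 4 intervals lay below 1 in WT, near the share of all genes, and 5 in KO, and relative to the median gene those of Ep300 and Kat2a did in both. Ep300 (p300), a coactivator at enhancers, was at 30.13 and 10.86 FPKM in WT and 31.29 and 12.37 in KO, ratios of 0.360 (0.326 to 0.398) and 0.395 (0.359 to 0.435). Its paralog Crebbp (CBP) was at 7.58 and 7.36 FPKM in WT and 9.27 and 7.42 in KO, a ratio of 0.971 (0.829 to 1.14) in WT and 0.800 (0.686 to 0.933) in KO. Kat2a (GCN5) was at 18.13 and 6.78, and 16.14 and 8.49, and Kat2b (PCAF) at 10.1 and 7.73, and 12.34 and 8.83 FPKM. The MYST enzyme Kat5 (TIP60) was level, at 19.97 and 21.86 FPKM in WT and 20.18 and 19.31 in KO, and Kat6a (MOZ) was at 14.3 and 9.39, and 14.87 and 10.23. Of the arginine methyltransferases, Prmt1 had intervals that held 1, and Carm1, a coactivator that methylates H3, was at 11.24 and 7.87 FPKM in WT and 11.2 and 8.49 in KO.

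Pairs of close relatives are described by the ratio of their levels, for 17 pairs within families that were picked after the values were seen, some of them sharing a gene. No share over other pairs of genes was computed, so nothing particular to these pairs is read from them. Such a ratio does not depend on how the libraries are scaled. Setdb1 was at 1.48 times Setdb2 without LPS and 0.206 times with it in WT, and at 2.53 and 0.376 times in KO. Ep300 was at 3.98 and 1.48 times Crebbp in WT and 3.38 and 1.67 times in KO, changes of 0.371 (0.309 to 0.446) and 0.494 (0.413 to 0.590). Kat2a was above Kat2b without LPS and near it with LPS, at 1.80 and 0.877 times in WT and 1.31 and 0.962 times in KO. Kdm4a was at 2.09 and 6.32 times Kdm4c in WT and 2.29 and 6.36 times in KO, and Kdm2a at 1.21 and 1.89 times Kdm2b, and 1.07 and 2.09 times. For Kmt2a against Kmt2b and Hdac4 against Hdac9 the interval of the change held 1 in both genotypes.

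**Figure D4:**
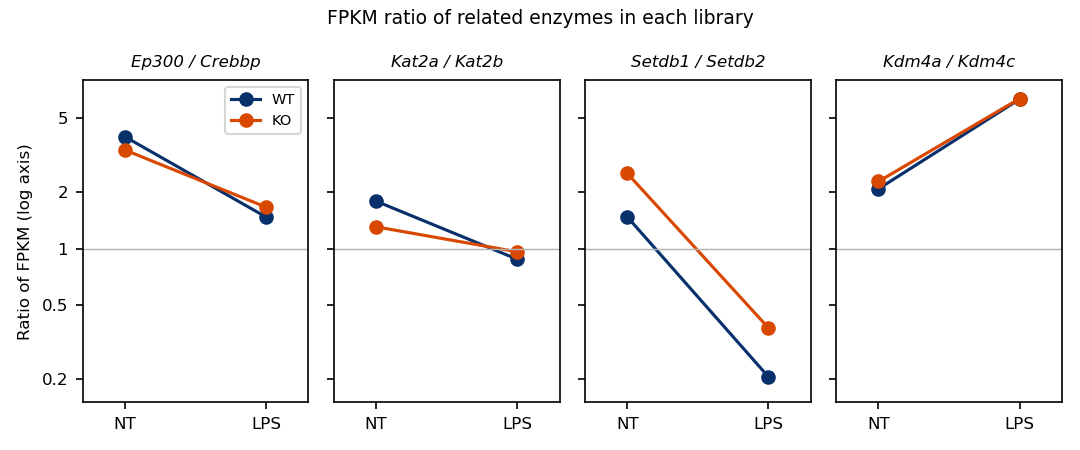
Ratio of FPKM (log axis) within 4 pairs of related enzymes in the untreated (NT) and LPS libraries, blue for WT and orange for KO, 1 library per point. The Setdb1 to Setdb2 ratio is 1.48 and 0.206 in WT and 2.53 and 0.376 in KO, and the Kdm4a to Kdm4c ratio lies above 6 in both LPS libraries.

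Summed over the 44 genes, the level was 635.5 (NT) and 432.5 (LPS) FPKM in WT and 649.4 and 460.3 in KO, ratios of 0.681 and 0.709. By class the WT ratio of sums was 0.568 for the H3K4 group, 0.583 for H3K36 and H3K79, 0.639 for acetyltransferases, 0.662 for demethylases, 0.681 for H3K9, 0.779 for deacetylases and 0.917 for arginine methyltransferases. In KO the class ratios ran from 0.609 for H3K36 and H3K79 to 0.818 for deacetylases. These sums were not rescaled, and the median gene was at log2 folds of -0.46 in WT and -0.42 in KO. Over all genes the summed FPKM was 448346.2 (NT) and 462751.9 (LPS) in WT and 452125.5 and 448406.8 in KO. Across the 44 genes Spearman's correlation of transcript length with log2 fold was -0.12 in WT and -0.08 in KO, against -0.063 and -0.0046 over all genes.

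Further histone-modifying enzymes outside the list were also read. Of 45 measured (48 listed), 0 were at least 2-fold higher and 13 lower in WT (28.9%, against 17.2% of all genes), and 0 and 14 in KO (31.1%, against 15.1%), at medians of -0.75 and -0.62. After rescaling, 9 were 2-fold lower in WT (7.56% of all genes) and 5 in KO (6.84%). The gene with the lowest WT fold in each sub-list is given. Kmt5c, which trimethylates H4K20, was at 10.38 and 1.13 FPKM in WT and 13.46 and 2.61 in KO. Riox1, a JmjC-domain oxygenase, was at 12.68 and 2.12, and 12.17 and 2.76, and the p160 coactivator Ncoa3 at 51 and 15.12, and 49.77 and 15.16. Sirt4, a mitochondrial sirtuin, was at 3.65 and 0.12 FPKM in WT and 3.77 and 1.11 in KO, from 32, 1, 33 and 9 counts. The arginine methyltransferase Prmt6 was at 9.81 and 4.62, and 8.12 and 5.37 FPKM, within 2-fold on the log2 scale used.

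Of 77 measured partner subunits and readers (78 listed), 1 was at least 2-fold higher and 16 lower in WT (20.8%, near the 17.2% of all genes), and 2 and 12 in KO (15.6%, near 15.1%). After rescaling, 6 were 2-fold lower in WT and 7 in KO, again near the shares of all genes. Sap30, a subunit of the Sin3 deacetylase complex, was the 1 that was higher in both, at 30.97 and 138.75 FPKM in WT and 30.56 and 99.57 in KO. The CoREST subunit Rcor2 was past 2-fold in KO, at 0.15 and 2.41 FPKM there and 0.23 and 1.16 in WT. Lower partners of the members included Pagr1a of the Kmt2c and Kmt2d complexes, at 17.67 and 4.08 FPKM in WT and 16.35 and 4.39 in KO. Ing4, a subunit of MYST acetyltransferase complexes, was at 26.96 and 7.62, and 35.45 and 10.69, and Atf7ip, the cofactor of Setdb1, at 7.38 and 1.59, and 8.28 and 2.13 FPKM. Among BET readers of acetylated histones, Brd2 was higher after LPS (80.95 and 122.56 FPKM in WT, 72.32 and 104.33 in KO) and Brd3 lower (5.93 and 1.73, 7.02 and 2.08).

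Without LPS the genotypes differed little in these enzymes. In KO, 0 of the 44 were at least 2-fold higher (0.919% of all genes) and 0 lower (0.883%), while at 1.5-fold 0 were higher (3.89%) and 1 was lower (3.06%), Setdb2. The median was 0.04, against 0.02 for all genes. Intervals above 1 were found for 9 members (20.5%, against 14.1% of all genes): Kmt2e, Kdm2b, Kdm3a, Kdm5a, Kdm5b, Hdac5, Hdac9, Kat2b and Crebbp. Intervals below 1 were found for 3 (6.82%, against 11.6%): Setdb2 at a ratio of 0.600 (0.470 to 0.760), Dot1l at 0.900 (0.834 to 0.971) and Hdac7 at 0.692 (0.518 to 0.920). For Setdb2 and Gm45935 summed the ratio was 0.859 with an interval that held 1 (0.711 to 1.04), so that without LPS the Setdb2 difference rests on how reads were divided between these overlapping genes.

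With LPS, more members stood above WT in KO. Again 0 were at least 2-fold higher (1.45% of all genes) and 0 lower (1.12%), while at 1.5-fold 2 were higher (5.68%), Hdac9 and Kdm5b, and 1 was lower (3.34%), Setdb2. The median was 0.17, against 0.08 for all genes, and 38 of 44 lay above 0 (86.4%, against 62.1%). Relative to the median gene 33 of 44 did, against 5478 of 10375 genes. Intervals above 1 were found for 14 members (31.8%, against 21.2%): Kmt2a, Kmt2b, Kmt2c, Kmt2d, Kmt2e, Suv39h1, Kdm1a, Kdm2a, Kdm3a, Kdm4a, Kdm5b, Kdm5c, Hdac9 and Ep300. They include 5 of 7 genes in the H3K4 group and 6 of 12 demethylases, whose summed levels were 1.22 and 1.20 times those of WT. An interval below 1 was found for Setdb2 alone, 1 of 44 (2.27%, against 9.50%). Relative to the median gene, intervals lay above 1 for 11 (25.0%, against 14.9% of all genes) and below 1 for 3 (6.82%, against 13.0%), Setdb2, Dot1l and Prmt1. Of the further enzymes 0 were 2-fold apart in either state, and of the partners 1, Mideas of a deacetylase complex, was higher in KO with LPS (3.76 FPKM in WT and 11.07 in KO). The macrophage and neutrophil marker sums were higher and the fibroblast sum lower in both KO libraries (values above). Of the 14 macrophage markers 11 were higher in KO without LPS and 9 with it, and the rest were lower. Of the 12 neutrophil markers 9 and 11 were higher, and the rest were lower. The part of these markers' cell types in the genotype differences was not tested.

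Across the untreated and LPS comparisons, which share no library, intervals lay above 1 in both for 4 members (7.75% of all genes did) and below 1 in both for 1 (5.14%). Hdac9, a class IIa deacetylase (chromosome 12, 34047580 to 34917095), was at 3.04 and 2.78 FPKM in WT and 4.62 and 5.09 in KO. Both KO libraries lay above both WT ones, with KO to WT ratios of 1.52 (1.15 to 2.02) without LPS and 1.83 (1.37 to 2.46) with it. Kdm5b (chromosome 1, 134560178 to 134632878) had ratios of 1.35 (1.01 to 1.80) and 2.16 (1.47 to 3.22), from 41 to 116 counts per library. Kmt2e, with 1.12 (1.01 to 1.23) and 1.28 (1.09 to 1.51), and Kdm3a, with 1.19 (1.04 to 1.36) and 1.29 (1.05 to 1.58), were the others. The same sign in both comparisons was found for 29 of 44 members, against 62.7% of 10045 genes.

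Setdb2 was lower in KO in both states, at 0.605 (0.516 to 0.706) with LPS, and there the value with Gm45935 summed was 0.609 (0.525 to 0.703). Its neighbours on chromosome 14, looked at after the Setdb2 values were seen, were lower in KO as well. Phf11a, Phf11b and Phf11d had KO to WT ratios of 0.651, 0.809 and 0.648 without LPS and 0.560, 0.612 and 0.573 with it, each with an interval below 1. These genes are close copies that can share reads. The ratios of Cab39l, on the other side of Setdb2, were 1.02 and 0.925 with intervals that held 1.

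**Figure D5:**
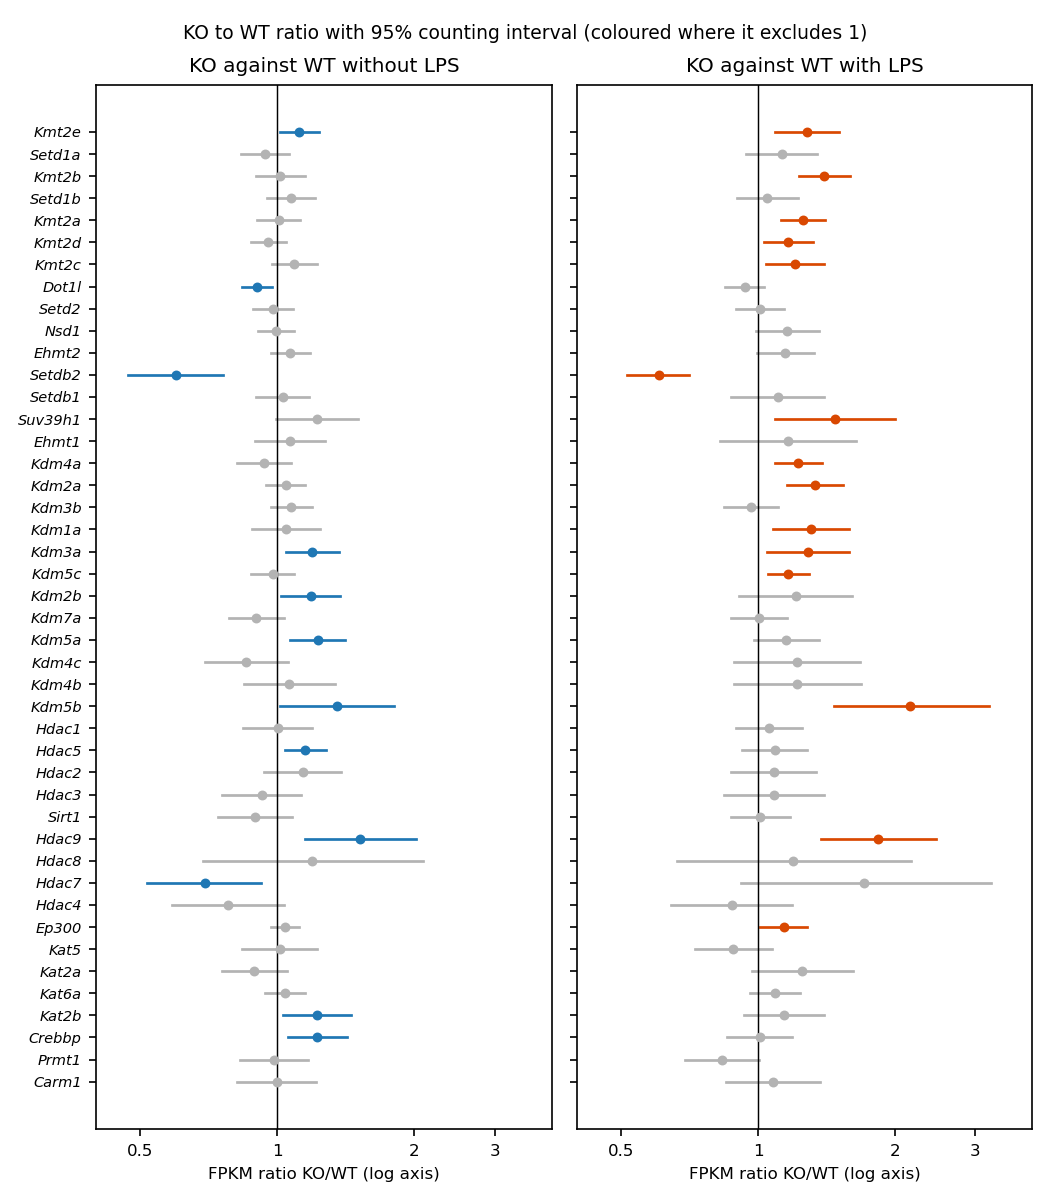
FPKM ratio of KO to WT (log axis) for each enzyme without LPS (left, blue) and with LPS (right, orange), with the 95% counting interval as a line; grey marks an interval that holds 1. Hdac9 and Kdm5b lie above 1 and Setdb2 below it in both panels, and more intervals lie above 1 with LPS (14) than without (9).

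The LPS response was compared between genotypes as the LPS to NT ratio in KO over that in WT. Its 95% interval lay above 1 for 9 of 44 members (20.5%, against 12.4% of all genes) and below 1 for 0 (5.19%). The median difference of log2 folds was 0.12, against 0.05 for all genes, and 33 of 44 lay above 0 (75%, against 58.2%). In the H3K4 group these were Kmt2a (1.25, 1.07 to 1.46), Kmt2b (1.38, 1.16 to 1.65) and Kmt2d (1.22, 1.05 to 1.42). Among demethylases they were Kdm2a (1.28, 1.08 to 1.52), Kdm4a (1.31, 1.10 to 1.57), Kdm5b (1.60, 1.003 to 2.55) and Kdm5c (1.19, 1.03 to 1.38). Hdac7 (2.47, 1.29 to 4.73) and Kat2a (1.41, 1.05 to 1.89) completed them. For Kmt2d, Kdm2a, Kdm5b, Hdac7 and Kat2a the level after LPS was a larger fraction of the untreated level in KO, and for Kdm4a and Kdm5c the LPS library exceeded the untreated one by more. After rescaling, the interval lay above 1 for 7 (9.02% of all genes), without Kdm5b and Kdm5c, and below 1 for 1 (7.48%), Crebbp.

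Overlapping genes limit some values. The spans of 23 members overlap another annotated gene, and whether counting used strand is not given in the sources used here. Setdb1 overlaps the end of Cers2, which was at 197.77 and 132.03 FPKM in WT and 153.53 and 109.24 in KO. The counts of 10 members were fractional in at least 1 library, meaning that reads were divided with other genes.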

How the data were processed

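RNA-seq of 4 libraries, 1 per group, was used. Reads were processed with Bowtie and RSEM against mm10, per the submitters' processing notes; for versions, annotation, strand setting and RNA selection the entry is: not given in the sources used here. The authors' deposited tables give, per the file headers, an estimated count from RSEM, in which reads that fit several genes are divided, an FPKM value that the authors normalised to gene length and library size, and a gene length. Genes absent from a table were set to 0. Symbols and coordinates came from RefSeq GRCm38.p6, which matched 15897 of 15935 gene IDs and not the other 38.

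Folds, ratios and intervals were computed as the report describes, with counts rounded to whole numbers for intervals, in Python 3.11.15 with numpy 2.4.6, pandas 2.3.3, scipy 1.17.1 and matplotlib 3.10.9, and the calculations were tested on simulated data. The interval for the response difference used the 4 counts on the log scale. All members are accounted for; those at least 1.5-fold apart with an interval that excludes 1, those 2-fold apart with LPS, the highest and lowest of each class, and up to 4 genes per further list, from the largest fold down, were named. Sin3b, Cers2 and Slc48a1 lie outside this rule and were named after their values were seen. The members and lists were chosen with earlier results of these data known, and the paralog pairs, the neighbours of Setdb2 and the sum with Gm45935 after values were seen. Alternatives changed the pseudocount, the filter, the scaling, the length, the fold and the interval level; those for the response difference were added after seeing the data.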

Additional observations from a re-analysis of the deposited data

Results flagged for a closer look

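Among 169 listed genes (members, further enzymes and partners), 3 had LPS to NT ratios in opposite directions in the genotypes with both intervals excluding 1 (1.78%, against 0.392% of 10964 genes with counts in all 4 libraries). The difference has no replicate check and was not tested beyond counting error. Kmt2b (MLL2) had a ratio of 0.846 (0.743 to 0.964) in WT and 1.17 (1.03 to 1.32) in KO, and the KO ratio was 1.38 times that of WT (1.16 to 1.65). Mideas, a subunit of a mitotic deacetylase complex, was at 7.9 (NT) and 3.76 (LPS) FPKM in WT and 7.89 and 11.07 in KO. Its ratios were 0.476 (0.389 to 0.580) and 1.40 (1.21 to 1.63), 2.95 times apart (2.31 to 3.76). Sin3b, a scaffold of Sin3 deacetylase complexes, was at 69.13 and 82.78 FPKM in WT and 82.19 and 71.66 in KO. Its ratios were 1.20 (1.06 to 1.36) and 0.872 (0.768 to 0.990), and the KO ratio was 0.728 times that of WT (0.611 to 0.868). Relative to the median gene only Mideas kept opposite directions, at 0.663 (0.543 to 0.808) in WT and 1.89 (1.63 to 2.19) in KO. On that scale Kmt2b was above 1 in both, at 1.18 (1.03 to 1.34) and 1.57 (1.39 to 1.77), and so was Sin3b, at 1.67 (1.47 to 1.89) and 1.17 (1.03 to 1.33).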

How the results depend on the processing

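With a pseudocount of 5 FPKM, members at least 2-fold higher and lower after LPS numbered 0 and 5 in WT and 0 and 3 in KO. The shares of all genes were 4.42% and 4.12% in WT and 4.56% and 3.6% in KO. With median-ratio scaling, 4 were lower in WT (7.56% of all genes), and 2 higher (9.76%) and 2 lower (6.84%) in KO. The medians were then -0.16 and -0.10. Intervals above 1 numbered 11 in each (29.5% of all genes in WT and 29.0% in KO), and intervals below 1 numbered 18 in KO (27.8%). At 1.5-fold, 22 were lower in WT (40.61% of all genes), and 3 higher (10.26%) and 19 lower (37.29%) in KO. At 3-fold, 0 were higher (4.001% of all genes) and 1, Hdac7, lower (4.183%) in WT. In KO at 3-fold, 0 were higher (4.237%) and 0 lower (3.27%). For KO against WT without LPS, 1, Setdb2, was lower at 1.5-fold (3.06% of all genes), and 5 intervals lay above 1 at the 99% level. With LPS, 1, Kdm5b, was 2-fold higher with a pseudocount of 0.1 FPKM (3.31% of all genes) and 1 in CPM from counts (2.00%). At 1.5-fold, 2 (Hdac9, Kdm5b) were higher (5.68%) and 1 (Setdb2) lower (3.34%). With median-ratio scaling 3 intervals lay below 1 (13.0%), and at 99% 9 lay above 1. Shares of all genes at the 99% level were not computed for KO against WT. For the response difference, 1 interval, of Crebbp, lay below 1 with median-ratio scaling (7.48% of all genes) and 5 above 1 at 99% (6.62%). The cause of these shifts was not tested. For 49 folds of single members, those large enough to be described by the naming rule, 331 of 393 alternatives stayed within the counting interval. The other 62 moved further and 0 were labelled as reversed. A reversal was counted only for folds of at least 2-fold, so that 0 was largely fixed by the rule and is not read as a check. Among the smaller folds outside that set, Kmt2a and Kmt2b went from an interval below 1 to one above 1 in WT with median-ratio scaling. No paired analysis was possible because each group had 1 library. Counts limit precision: a member rested on as few as 19 (Hdac7, WT with LPS), and no setting replaces the missing replicates.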
